A study of Mus musculus with 7 samples.

Results

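The BCL2 family decides at the outer mitochondrial membrane whether a cell lives or dies. Survival proteins hold the pore-forming proteins BAX and BAK in check, and the BH3-only proteins (BIM, PUMA, NOXA and BID) tip the balance towards death by binding either side. Myeloid cells and lymphocytes depend on this balance for their lifespan, and MCL1, a survival protein with rapid turnover, is a main regulator of it in leukocytes.

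The genes followed here were Mcl1, Bcl2, Bcl2l1, Bcl2l11, Bax, Bak1, Bbc3, Pmaip1 and Bid, 9 in all, taken by gene symbol in spleen monocytes of mice. A probe set (the group of probes that reads a gene on the array) was used only where it carried a single symbol, which gave 10 probe sets of the 41345 on the array for 8 of the 9 genes, among 22180 genes in all. Bax was not analysed here. Mcl1 and Bcl2 each had 2 probe sets, and the brighter on average was used. All 8 genes reached the level required for testing, a log2 value of 5 on 1 or more arrays, as did 11119 genes in all.

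Expression was measured on 7 Affymetrix Mouse Gene 2.0 ST arrays, each with RNA from 1 of 2 mice. Monocytes carrying wild-type EPCR (the receptor of protein C on endothelium and myeloid cells) were exposed for 3 h with HL7G, a monoclonal antiphospholipid antibody, at 400 ng/ml (mouse 1 and mouse 2), or, from mouse 1 alone, with the TLR7 agonist R848 at 2 µg/ml, the TLR9 agonist CpG B at 2.5 µM or the TLR3 agonist poly I:C at 1 µg/ml. Unstimulated cells of mouse 1 and mouse 2 served for comparison. All groups shared the wild-type EPCR. The IgG condition that the protocol also names was not analysed here. For strain, age, the selection of the monocytes and the culture time of the unstimulated cells, the sources used here give nothing.

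The unstimulated arrays stood apart from the other 5. Actb, the gene of the cytoskeletal protein beta-actin, read 7.77 to 9.34 on the stimulated arrays, against 5.02 and 6.81 on the unstimulated ones, in log2 units. Ptprc, the leukocyte surface protein CD45, read 6.86 to 8.30 on the stimulated arrays, against 4.06 and 5.44 on the unstimulated ones. The median over all probe sets lay between 4.40 and 4.54 on every array. Of 13 monocyte markers with a probe set, Itgam, Ly6c2, Ccr2, Fcgr1 and Fcgr4 stayed under 5 on all arrays. The other 8 reached 5 on 1 or more arrays. Csf1r, the growth factor receptor of monocytes and macrophages, read 4.86 to 5.61 and Cd14 4.34 to 5.48. Lyz2 read 4.53 to 7.02, Cebpb 4.73 to 5.95, Nr4a1 5.31 to 6.42, Cx3cr1 5.13 to 6.50, Spn 5.59 to 6.20 and Treml4 5.28 to 5.85. In bulk RNA, fewer cells of a type and less RNA per cell cannot be told apart. The number of arrays limits the precision of every value: HL7G and unstimulated had 2 arrays each, and each agonist had 1.

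Among the survival genes, Mcl1 was higher in HL7G-treated cells than in unstimulated cells by 3.66-fold. Bcl2 and Bcl2l1, which encodes BCL-XL, lay above the unstimulated arrays on all 5 stimulated arrays, with differences that did not pass the test for any stimulus. No death gene of the family passed the test in any comparison. Differences were tested with limma on all 7 arrays, adjusted by Benjamini-Hochberg over the 11119 genes and called at an adjusted p under 0.05; values with ± are log2 differences with their standard errors unless SD is named.

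Mcl1 (probe set 17400418) had log2 levels of 8.24 in HL7G cells of mouse 1 and 7.48 in HL7G cells of mouse 2, 7.77 with R848, 7.59 with CpG B and 7.06 with poly I:C, against 5.79 and 6.19 in unstimulated cells of mouse 1 and mouse 2. Every stimulated array was above both unstimulated arrays, and HL7G of mouse 1 was the highest. The group means were 7.86 ± 0.54 in HL7G cells and 5.99 ± 0.29 in unstimulated cells (SD, n = 2 each). HL7G minus unstimulated came to 1.87 ± 0.31 (95% interval 1.14 to 2.61, adjusted p = 0.0138), with 2.46 in mouse 1 and 1.29 in mouse 2. This difference was larger than that of 96.0% of the genes tested, and 446 genes had a larger one. Among the 1337 genes whose mean reached 6, the median difference was 0.86, 45.3% were called and 80.1% had a smaller difference than Mcl1. Scaling the arrays by brightness with loess gave 0.68 for Mcl1 (adjusted p = 0.0706). Without the unstimulated array of mouse 1 only the HL7G pair sets the residual spread, so no call is read, and the difference was 1.67. With the mean of both Mcl1 probe sets it was 1.03 (adjusted p = 0.0287), and after quantile normalization 1.19 (adjusted p = 0.0177). The other Mcl1 probe set (17407826) was dim, at 4.68 to 5.27 over the 7 arrays, and its highest value was with R848.

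**Figure D1:**
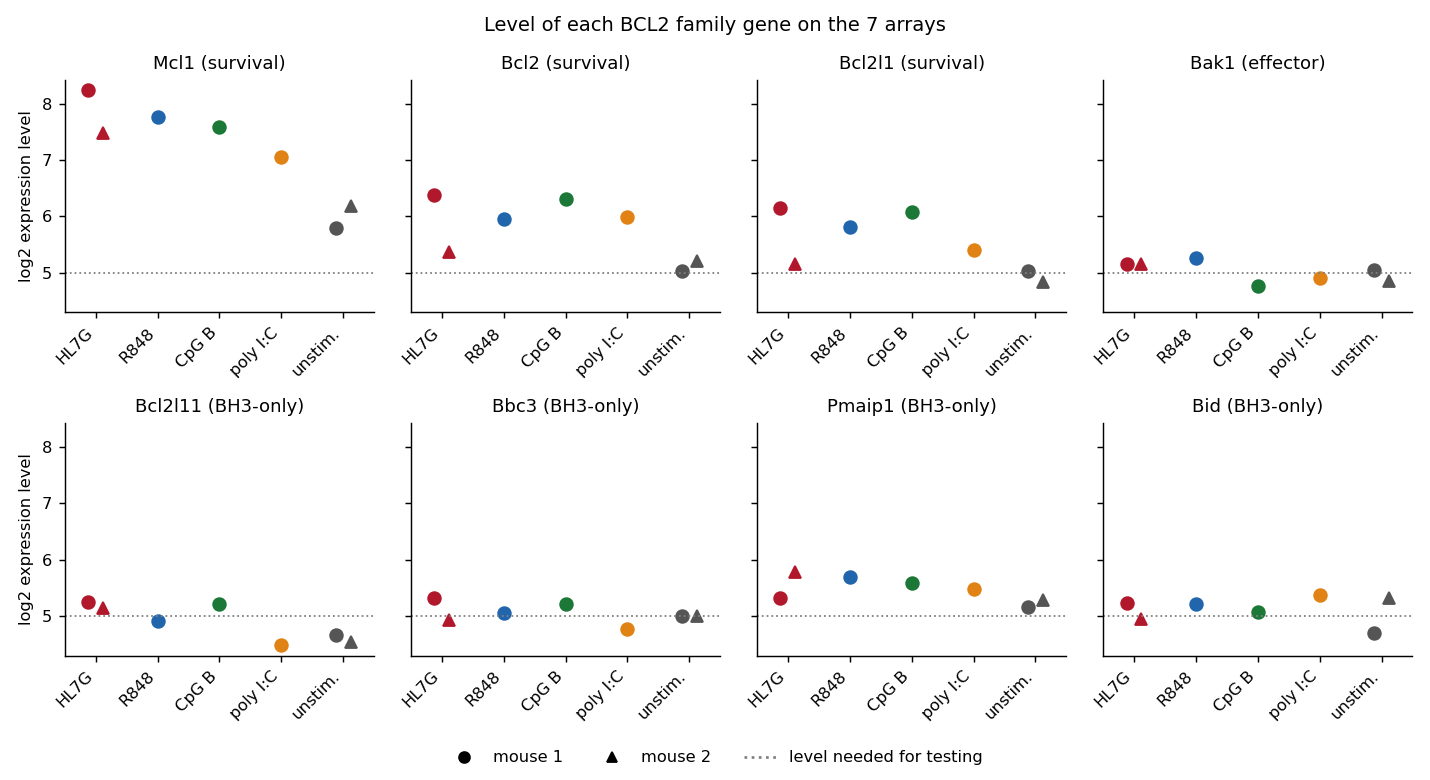
Log2 expression level of each of the 8 measured BCL2 family genes (vertical axis) in HL7G, R848, CpG B, poly I:C and unstimulated cells (horizontal axis), with 1 point per array, marked by mouse, and the dotted line at the level of 5 required for testing. Mcl1 lies between 7.06 and 8.24 on the stimulated arrays and at 5.79 and 6.19 on the unstimulated ones, while Bak1 and Bbc3 span 0.49 and 0.56 over all arrays.

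Bcl2, the founding survival gene of the family, had levels of 6.38 and 5.36 in HL7G cells of mouse 1 and mouse 2, 5.96 with R848, 6.31 with CpG B and 5.997 with poly I:C, against 5.04 and 5.20 in unstimulated cells. The HL7G arrays of the mice differed by more than the HL7G array of mouse 2 differed from the unstimulated arrays. HL7G minus unstimulated was 0.75 ± 0.35 (adjusted p = 0.166), with 1.35 in mouse 1 and 0.16 in mouse 2. Without HL7G of mouse 1 the difference was 0.24, and without HL7G of mouse 2 it was 1.26. In these fits only the unstimulated pair sets the residual spread, and its SD was 0.12 for Bcl2, against 0.72 in HL7G cells. No call is therefore read from them. The other Bcl2 probe set was dim, at 3.87 to 4.63, and was highest on the unstimulated arrays, so that the mean of both probe sets differed by 0.086 (adjusted p = 0.813).

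Bcl2l1 had levels of 6.15 and 5.16 in HL7G cells of mouse 1 and mouse 2, 5.81 with R848, 6.09 with CpG B and 5.41 with poly I:C, against 5.03 and 4.83 in unstimulated cells. As for Bcl2, HL7G of mouse 1 and CpG B were the highest arrays, and HL7G of mouse 2 was the lowest stimulated one. HL7G minus unstimulated was 0.73 ± 0.34 (adjusted p = 0.174), with 1.13 in mouse 1 and 0.32 in mouse 2. Without HL7G of mouse 1 the difference was 0.23, and without HL7G of mouse 2 it was 1.22. Here too only the unstimulated pair sets the residual spread, with an SD of 0.14 for Bcl2l1, against 0.71 in HL7G cells, so no call is read.

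Of the effectors, Bak1, which forms pores in the mitochondrial membrane, had levels of 5.16 and 5.15 in HL7G cells, 5.26 with R848, 4.77 with CpG B and 4.90 with poly I:C, against 5.04 and 4.86 in unstimulated cells. The CpG B array lay below both unstimulated arrays, poly I:C lay between them, and both HL7G arrays lay above both unstimulated ones. HL7G minus unstimulated was 0.21 ± 0.21 (adjusted p = 0.498).

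Among the BH3-only genes, Bcl2l11, which encodes BIM and limits the lifespan of leukocytes, had levels of 5.25 and 5.15 in HL7G cells, 4.91 with R848, 5.22 with CpG B and 4.48 with poly I:C, against 4.65 and 4.54 in unstimulated cells. The poly I:C array was below both unstimulated arrays, and the other 4 stimulated arrays were above them. HL7G minus unstimulated was nearly the same in both mice, at 0.598 in mouse 1 and 0.61 in mouse 2. The fitted difference was 0.604 ± 0.21 (95% interval 0.10 to 1.10), which had an unadjusted p of 0.0245 in limma and an adjusted p of 0.0893, so it was not called.

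Pmaip1, which encodes NOXA, a BH3-only partner of MCL1, had levels of 5.31 and 5.78 in HL7G cells, 5.69 with R848, 5.58 with CpG B and 5.48 with poly I:C, against 5.16 and 5.28 in unstimulated cells. All 5 stimulated arrays were above both unstimulated ones, and the highest of them was HL7G of mouse 2, where for Mcl1 it was HL7G of mouse 1. HL7G minus unstimulated was 0.33 ± 0.24 (adjusted p = 0.357).

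Bbc3, which encodes the p53 target PUMA, had levels of 5.32 and 4.92 in HL7G cells, 5.05 with R848, 5.22 with CpG B and 4.76 with poly I:C, against 5.003 and 5.006 in unstimulated cells. The groups overlapped, and HL7G minus unstimulated had opposite signs in the mice, at 0.31 in mouse 1 and -0.08 in mouse 2. Bid, whose protein links death receptors to mitochondria after cleavage by caspase 8, had levels of 5.24 and 4.94 in HL7G cells, 5.22 with R848, 5.06 with CpG B and 5.38 with poly I:C, against 4.69 and 5.31 in unstimulated cells. The unstimulated arrays of Bid lay further apart than the HL7G arrays, and the mice again had opposite signs, at 0.54 in mouse 1 and -0.37 in mouse 2. The fitted differences were 0.12 ± 0.23 for Bbc3 (adjusted p = 0.729) and 0.09 ± 0.28 for Bid (adjusted p = 0.833).

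Over the family, HL7G gave 1 called gene of 8, higher in HL7G cells, against 18.2% of all genes tested (16.3% called higher and 1.89% called lower). The share higher among called genes depended on the scaling of the arrays, at 89.6% as deposited, 68.7% with loess and 57.6% with quantile normalization. Both HL7G arrays were above both unstimulated arrays for 6 of 8 family genes and below both for 0 of 8, against 40.6% and 29.9% of all genes tested. All 5 stimulated arrays were above both unstimulated ones for Mcl1, Bcl2, Bcl2l1 and Pmaip1, 4 of 8, against 27.4% of all genes tested. The median HL7G difference was 0.47 over the 8 genes and 0.06 over all genes tested. The median over the 8 genes was 0.23 without HL7G of mouse 1 and 0.27 when the probe sets of a gene were averaged. Without the unstimulated array of mouse 1 the median over the 8 genes was 0.48. Only the HL7G pair then sets the residual spread, so no call, kept or lost, is read from that fit.

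**Figure D2:**
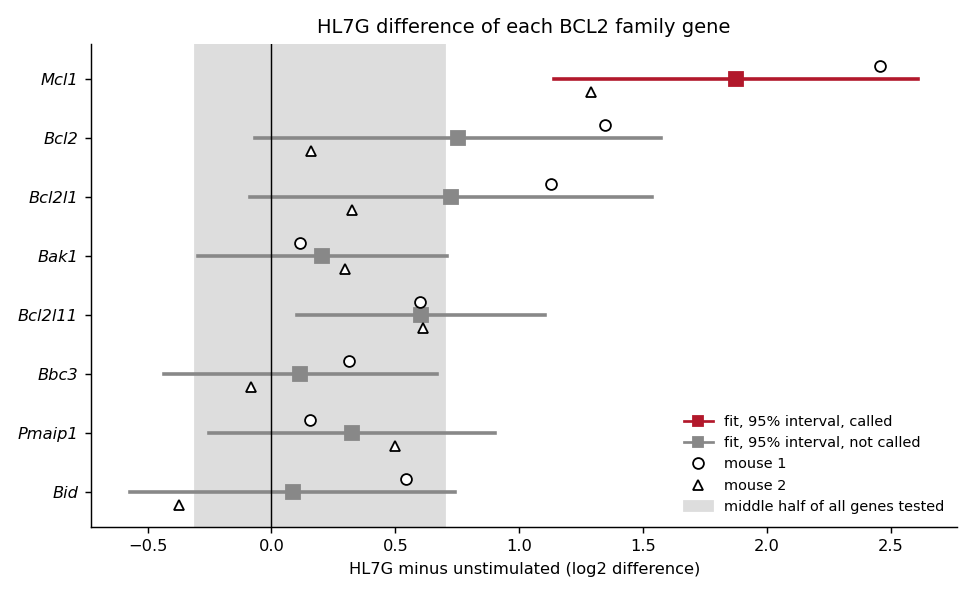
HL7G minus unstimulated as a log2 difference (horizontal axis) for each of the 8 genes (vertical axis), with the fitted difference and its 95% interval, and each mouse's own difference. The interval of Mcl1, 1.14 to 2.61, lies to the right of 0 and of the grey band. The band runs between the lower and upper quartiles of all genes tested (-0.31 to 0.70). The values of the mice lie far apart for Mcl1 (2.46 in mouse 1 and 1.29 in mouse 2), Bcl2, Bcl2l1 and Bid.

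The TLR agonists act on endosomal receptors for nucleic acids. They were set against the same unstimulated arrays as HL7G, so these comparisons share them. No gene was called for R848, CpG B or poly I:C, or for HL7G minus the mean of the 3 agonists: 0% of 11119 genes in each by limma, with 2550, 1370, 1054 and 1202 genes at an unadjusted p under 0.05. Of the 8 family genes, 0 were called in each, with 1, 4, 1 and 0 at an unadjusted p under 0.05. Each agonist rests on 1 array, so its own spread was not measured.

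As deposited, Mcl1 was the family gene with the largest difference for R848, at 1.78 ± 0.38 (adjusted p = 0.0897), for CpG B, at 1.6 ± 0.38 (adjusted p = 0.236), and for poly I:C, at 1.07 ± 0.38 (adjusted p = 0.493). These differences were larger than those of 96.9%, 97.2% and 94.5% of all genes tested for the same agonists in that order, and than those of 82.7%, 85.3% and 72.3% of the 1337 genes whose mean reached 6. With loess the Mcl1 difference was 0.65 for R848, 0.77 for CpG B and 0.19 for poly I:C, and Mcl1 was no longer first for any agonist. Bcl2l1 then differed by 0.71 with R848 and 1.05 with CpG B, and Bcl2 by 0.72 with poly I:C. With quantile normalization Bcl2 (0.90) was above Mcl1 (0.84) for poly I:C, and with the mean of both probe sets Mcl1 differed by 1.13 with R848, 0.80 with CpG B and 0.49 with poly I:C. Bcl2 differed by 0.84 ± 0.42 with R848, 1.19 ± 0.42 with CpG B and 0.88 ± 0.42 with poly I:C. Bcl2l1 differed by 0.88 ± 0.42 with R848, 1.16 ± 0.42 with CpG B and 0.48 ± 0.42 with poly I:C. The mean of both Bcl2 probe sets differed by 0.13 with R848, 0.28 with CpG B and 0.29 with poly I:C. For CpG B, Bcl2 and Bcl2l1 had unadjusted p of 0.0262 and 0.0285 in limma. Within mouse 1, which gave all agonist arrays, HL7G had a larger difference than CpG B for both genes, at 1.35 against 1.28 for Bcl2 and 1.13 against 1.06 for Bcl2l1. Bcl2l11 differed by 0.32 ± 0.26 with R848, 0.62 ± 0.26 with CpG B and -0.11 ± 0.26 with poly I:C. For Bak1, Bbc3, Pmaip1 and Bid the agonist differences lay between -0.24 and 0.47.

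With HL7G as the mean of mouse 1 and mouse 2 and the agonists from mouse 1 alone, Mcl1 levels ran HL7G, R848, CpG B, poly I:C and unstimulated from high to low. For Bcl2 the order was CpG B, poly I:C, R848, HL7G and unstimulated, and for Bcl2l1 it was CpG B, R848, HL7G, poly I:C and unstimulated. Within mouse 1 alone HL7G came first for all of Mcl1, Bcl2 and Bcl2l1. None of the 32 neighbouring pairs in the orders of the 8 genes passed the test, with adjusted p from 0.166 to 1, and 1 had an unadjusted p under 0.05 in limma. HL7G minus the mean of the 3 agonists was 0.39 ± 0.28 for Mcl1 (95% interval -0.28 to 1.06, adjusted p = 0.677), -0.22 ± 0.32 for Bcl2 (95% interval -0.97 to 0.53, adjusted p = 0.851) and -0.11 ± 0.31 for Bcl2l1 (95% interval -0.85 to 0.63, adjusted p = 0.929). The antibody and the agonists were thus not told apart for these genes at this precision. The value for Bcl2l11 was 0.33 ± 0.19 (adjusted p = 0.586), and for the other 4 genes values lay between -0.13 and 0.18.

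**Figure D3:**
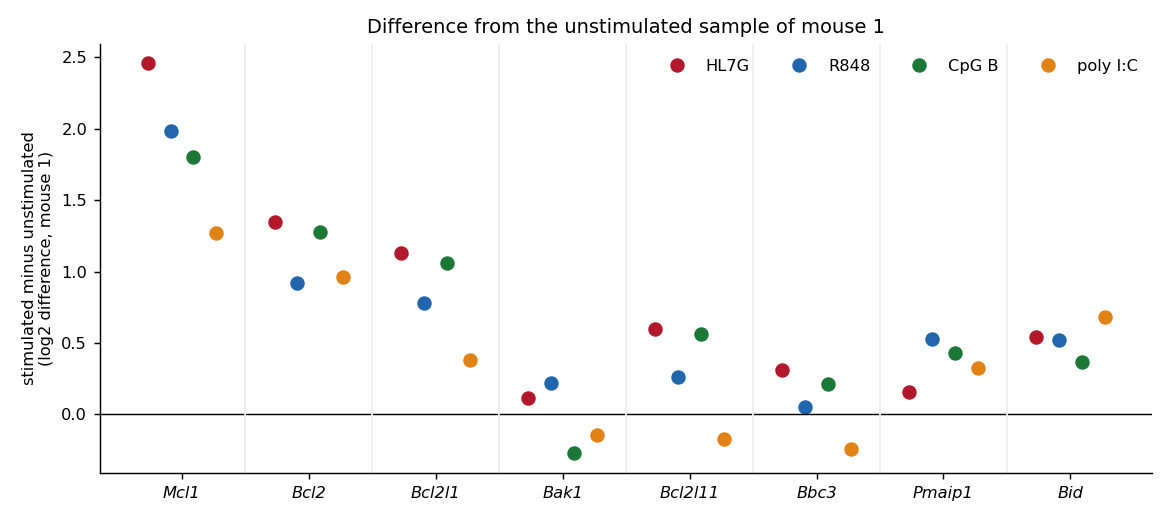
Stimulated minus unstimulated cells within mouse 1 as a log2 difference (vertical axis) for each family gene (horizontal axis), with HL7G, R848, CpG B and poly I:C side by side, 1 array each and therefore no error bars. On the values as deposited Mcl1 differs most under every stimulus, at 2.46 with HL7G, 1.99 with R848, 1.80 with CpG B and 1.27 with poly I:C; in the fit after loess scaling it is not first for any agonist.

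The genes whose levels, centred on their own mean, followed a family gene most closely over the 7 arrays were found by the root mean square difference on the log2 scale. For Mcl1 these were Cdc37, a kinase co-chaperone, at 0.082 and Fnbp1, a membrane-curving protein, at 0.10. For Bcl2 they were Gemin5, of the complex that assembles spliceosomal particles, at 0.075 and Vegfa, a vascular growth factor, at 0.094. For Bcl2l1 they were Utp20, of ribosome assembly, at 0.066 and Atic, of purine synthesis, at 0.077. For Bcl2l11 they were Zdhhc6 and Usf3, for Bak1 Tmed8 and Cstb, for Bbc3 Ccnj and Dhrs4, for Pmaip1 Ogfod2 and Enoph1, and for Bid Guk1 and Cma2, at 0.058 to 0.085. The 7 arrays share 2 mice and 1 contrast of stimulated with unstimulated cells, so this is a description only.

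Promoters are shown for Mcl1, the family gene called for HL7G, and for the survival genes Bcl2 and Bcl2l1 beside it; that of Pmaip1 was not used here. Sequences are from RefSeq, build GRCm38.p6, and cover the 250 bases before a transcript start, written 5′ to 3′ along the gene; capitals mark GGG and CC with any 5 bases between them, on either strand, a short form of the site bound by NF-kB. Mcl1 is at chr3:95658471-95658720, plus strand, Bcl2 at chr1:106714291-106714540, minus strand, and Bcl2l1 at chr2:152830718-152830967, minus strand, which was picked from 3 Bcl2l1 windows because it alone held matches.
Mcl1: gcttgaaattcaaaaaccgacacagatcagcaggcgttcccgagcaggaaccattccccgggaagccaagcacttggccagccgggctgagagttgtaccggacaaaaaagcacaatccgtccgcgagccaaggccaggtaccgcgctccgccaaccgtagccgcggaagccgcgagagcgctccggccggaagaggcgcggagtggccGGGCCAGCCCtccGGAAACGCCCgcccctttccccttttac
Bcl2: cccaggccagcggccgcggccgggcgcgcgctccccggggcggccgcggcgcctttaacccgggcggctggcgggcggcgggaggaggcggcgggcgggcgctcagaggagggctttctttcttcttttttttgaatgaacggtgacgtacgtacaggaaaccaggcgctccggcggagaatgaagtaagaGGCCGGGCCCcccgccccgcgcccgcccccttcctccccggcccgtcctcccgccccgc
Bcl2l1: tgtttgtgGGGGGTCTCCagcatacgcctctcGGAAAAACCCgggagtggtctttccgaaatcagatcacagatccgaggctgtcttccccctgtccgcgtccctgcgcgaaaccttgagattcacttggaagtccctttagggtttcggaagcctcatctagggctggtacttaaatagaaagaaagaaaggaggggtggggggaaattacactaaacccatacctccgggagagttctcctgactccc

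The Mcl1 window held 2 capital stretches near its 3′ end, the Bcl2 window 1 and the Bcl2l1 window 2. Of the 13 windows of 8 family genes, 11 held these letters, among them windows of Bcl2l11, Bbc3, Bid, Bak1 and Bax, against 45.8% of 32851 windows of the same length. The 13 windows are not separate units, since some genes have several and Bbc3 has overlapping ones (chr7:16310011-16310260 and chr7:16310181-16310430). The windows of Mcl1 and Bcl2 had 64.4% and 74.8% G and C and the Bcl2l1 window shown 53.2%, against a median of 52.4% over all windows. The other Bcl2l1 windows had 48.4% and 47.6%. Those of Bbc3 had 72.4% to 81.6%, and those of Bcl2l11 had 72.0% and 73.2%. The fixed letters of the NF-kB form are G and C only, and the share of windows holding them was not adjusted for G and C content. Searches on both strands for TGACGTCA (in 1.55% of all windows), TTCNNNGAA (7.02%) and GAAA followed after any 2 bases by GAAA (2.98%), short forms of the sites of CREB and ATF, STAT and interferon regulatory factors, found 0 matches in these 13 windows. A match of letters is a description, not a binding site.

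The wider apoptosis machinery was followed in 9 lists with 74 genes, of which 48 were tested. HL7G cells were higher for 17 and lower for 0 of the 48, against 16.3% called higher and 1.89% called lower of all genes tested. The median difference of the 48 was 0.61, or 0.35 without HL7G of mouse 1. A gene could reach the level required for testing on stimulated arrays alone, which favours higher calls, here and among all genes tested. Casp8, Cflar, Birc2, Birc3, Huwe1 and Usp9x did so. How many of the 48 did so was not counted, and the excess of the list over all genes was not tested. For each agonist 0 of the 48 were called by limma, with 15 at an unadjusted p under 0.05 for R848, 13 for CpG B and 10 for poly I:C, and medians of 0.50, 0.37 and 0.25 in that order. The median HL7G difference of the 48 was 0.60 without the unstimulated array of mouse 1 and 0.60 without that of mouse 2. Without HL7G of mouse 2 it was 0.88. Without HL7G of mouse 1, Mdm2 differed by 0.89, Trp53inp1 by 1.05, Bnip2 by 0.80 and Htra2 by 0.80. Each of these fits leaves only 1 pair of arrays to set the residual spread, so no call is read from them.

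In the death receptor list, which carries the signal from surface receptors to caspases, 2 of 4 tested genes were higher. Casp8, the caspase that starts this pathway and cleaves BID, had levels of 7.45 and 6.56 in HL7G cells, against 4.28 and 4.54 in unstimulated cells, a difference of 2.59 ± 0.32 (6.04-fold, adjusted p = 0.0120). Its inhibitor Cflar read 7.17 and 5.94 in HL7G cells, against 4.596 and 4.92 in unstimulated cells. The Cflar difference was 1.80 ± 0.40 (adjusted p = 0.0256), or 1.18 without HL7G of mouse 1. Both genes had all stimulated arrays above both unstimulated ones, as had 27.4% of all genes tested. Both were under 5 on the unstimulated arrays and so met the filter on stimulated arrays only.

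Of 4 tested genes of the IAP list, which holds inhibitors of caspases and of death receptor signals, 3 were higher. Birc2 read 6.62 and 5.52 in HL7G cells, against 4.11 and 4.38 in unstimulated cells, a difference of 1.82 ± 0.37 (adjusted p = 0.0206). Birc3 read 6.96 and 5.75 in HL7G cells, against 4.69 and 4.80 in unstimulated cells. The Birc3 difference was 1.61 ± 0.39 (adjusted p = 0.0317), or 1.01 without HL7G of mouse 1. Birc6 differed by 1.31 ± 0.24 (adjusted p = 0.0176), and by 0.47 (adjusted p = 0.147) when its probe sets were averaged.

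In the transcription factor list, 4 of 9 tested genes were higher. Rel and Rela, subunits of NF-kB, differed by 2.80 ± 0.47 (adjusted p = 0.0139) and 2.14 ± 0.24 (adjusted p = 0.0120). Rel read 8.31 and 6.86 in HL7G cells, against 4.498 and 5.07 in unstimulated cells, and 6.69 to 6.95 with the agonists. Atf4, of the stress response, differed by 2.01 ± 0.41 (adjusted p = 0.0208), and Stat3, of cytokine signalling, by 1.82 ± 0.32 (adjusted p = 0.0161). The list was named for control of BCL2 family genes reported elsewhere, and control was not measured.

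In the p53 list, 4 of 9 tested genes were higher. Mdm4 and Mdm2, which restrain p53, differed by 1.82 ± 0.41 (adjusted p = 0.0262) and 1.18 ± 0.27 (adjusted p = 0.0274). The p53 targets Ccng1 and Trp53inp1 differed by 1.74 ± 0.29 (adjusted p = 0.0138) and 1.22 ± 0.28 (adjusted p = 0.0277). With loess, Mdm2 was not called, at 0.82 (adjusted p = 0.0544). Trp53 itself was not analysed here.

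The list of MCL1 protein turnover had 2 of 5 tested genes higher, with opposite known roles. Huwe1, a ubiquitin ligase that marks MCL1 for destruction, read 7.004 and 6.49 in HL7G cells, against 4.17 and 4.90 in unstimulated cells, a difference of 2.21 ± 0.32 (adjusted p = 0.0120). Usp9x, which removes ubiquitin from MCL1, read 6.06 and 5.48 in HL7G cells, against 4.48 and 4.53 in unstimulated cells, a difference of 1.27 ± 0.26 (adjusted p = 0.0212). Protein was not measured.

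For the lists closest to the family by sequence or partner, calls are to be set against 18.2% called of all genes tested. Of the other BCL2 family survival genes, 0 of 3 tested were called; Bcl2a1a, chosen here after its values were seen, read 7.10 and 4.77 in HL7G cells, 6.18 with R848, 5.83 with CpG B and 6.32 with poly I:C, against 4.16 and 4.48 in unstimulated cells. Its difference was 1.62 ± 0.66 (adjusted p = 0.131), and because the Bcl2a1 copies are nearly identical its probes may read several of them. Of the other BCL2 family death genes, 0 of 3 were called, with a median of -0.34. Bnip2, named for binding BCL2, was the 1 called gene of 3 in its list, at 1.09 ± 0.28 (adjusted p = 0.0381), and Htra2, a mitochondrial protease that antagonises IAP proteins, the 1 of 8 in the apoptosome and caspase list, at 0.88 ± 0.24 (adjusted p = 0.0496). With the mouse as a block these adjusted p were 0.0510 and 0.0769, so neither was called. The median of the apoptosome and caspase list was 0.18 as deposited and turned to -0.09 with loess and -0.17 with quantile normalization.

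**Figure D4:**
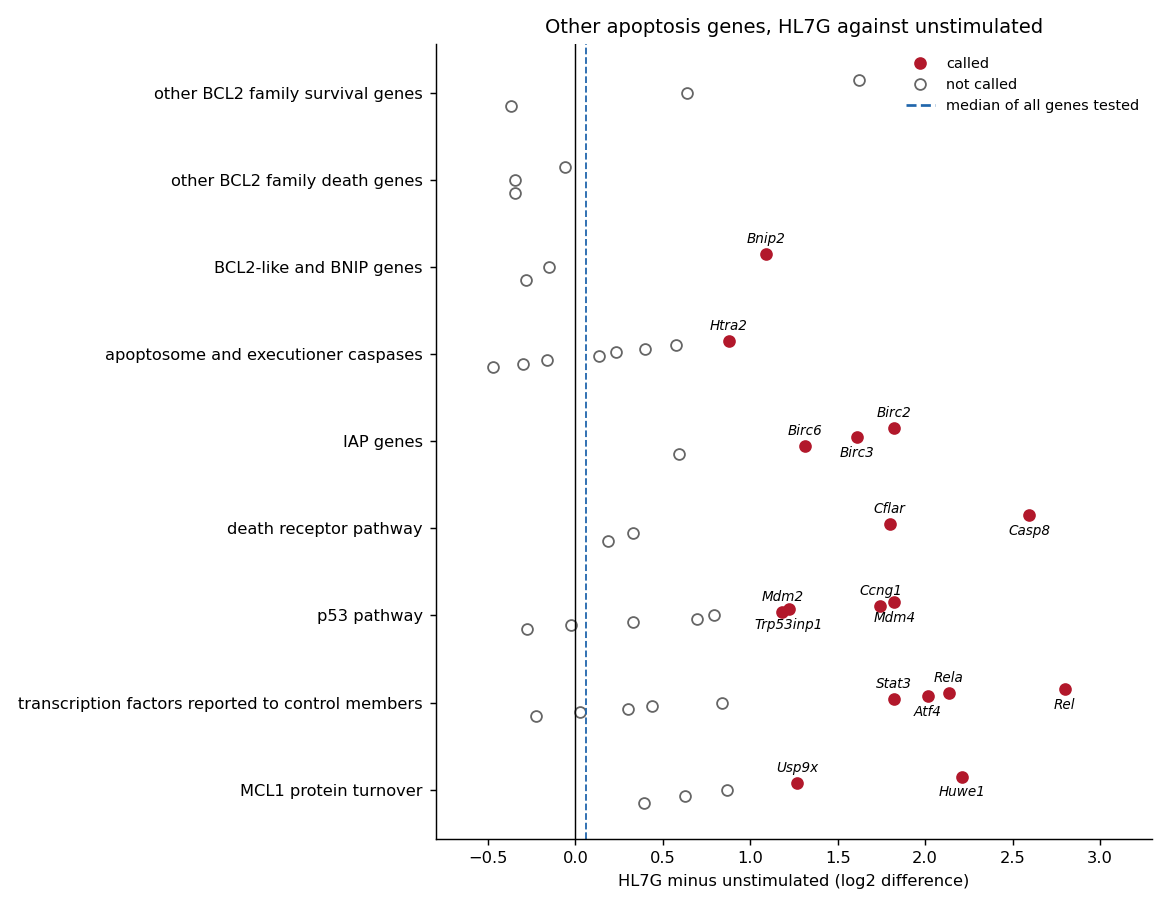
HL7G minus unstimulated as a log2 difference (horizontal axis) for each tested gene of the 9 apoptosis lists (vertical axis), filled where called, with a dashed line at the median of all genes tested. The 17 filled points all lie between 0.88 and 2.80, while the lists of other BCL2 family genes hold open points only.

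Summed markers of B cells and T cells were higher on the stimulated arrays as well, while those of other cell types differed in direction. The counts of markers called for HL7G are to be set against all genes tested, of which 16.3% were called higher and 1.89% lower. Summed levels of B cell markers were 9.54 to 9.59 in HL7G cells and 8.81 to 9.19 with the agonists, against 8.13 to 8.38 in unstimulated cells, with 7 of 9 tested markers called higher for HL7G. Summed T cell markers were 9.10 to 9.34 in HL7G cells and 8.41 to 8.64 with the agonists, against 7.96 to 8.13 in unstimulated cells, with 3 of 7 called higher. Monocyte markers summed to 9.08 to 9.12 in HL7G cells and 8.76 to 8.92 with the agonists, against 8.75 to 8.85 in unstimulated cells, with 1 of 8, Lyz2, called higher. Neutrophil markers summed to 8.01 to 8.04 in HL7G cells and 8.02 to 8.07 with the agonists, against 7.88 to 8.03 in unstimulated cells, with 0 of 4 called. Red pulp macrophage markers summed to 7.46 to 7.90 in HL7G cells, against 7.13 to 7.33 in unstimulated cells, with 1 of 2, Hmox1, called higher. Platelet markers summed to 6.50 to 6.68 in HL7G cells, against 6.80 to 6.92 in unstimulated cells, and NK cell markers to 7.71 to 7.80, against 7.88 to 8.06 in unstimulated cells, with no marker called in either list. Conventional dendritic cell markers summed to 9.59 to 10.06 in HL7G cells, against 8.75 to 9.52 in unstimulated cells, and 0 of 3 were called. That sum was mostly Cd209a, at 9.39 and 9.92 in HL7G cells, against 8.27 and 9.29 in unstimulated cells. The mean log2 level of the list was 5.56 and 5.72 in HL7G cells, against 5.57 and 5.63 in unstimulated cells. The plasmacytoid dendritic cell and erythroid lists had 0 of 3 and 0 of 2 called. Lymphocytes express several of the BCL2 family genes too, and the part of RNA of other cells in the Mcl1 result was not tested.

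**Figure D5:**
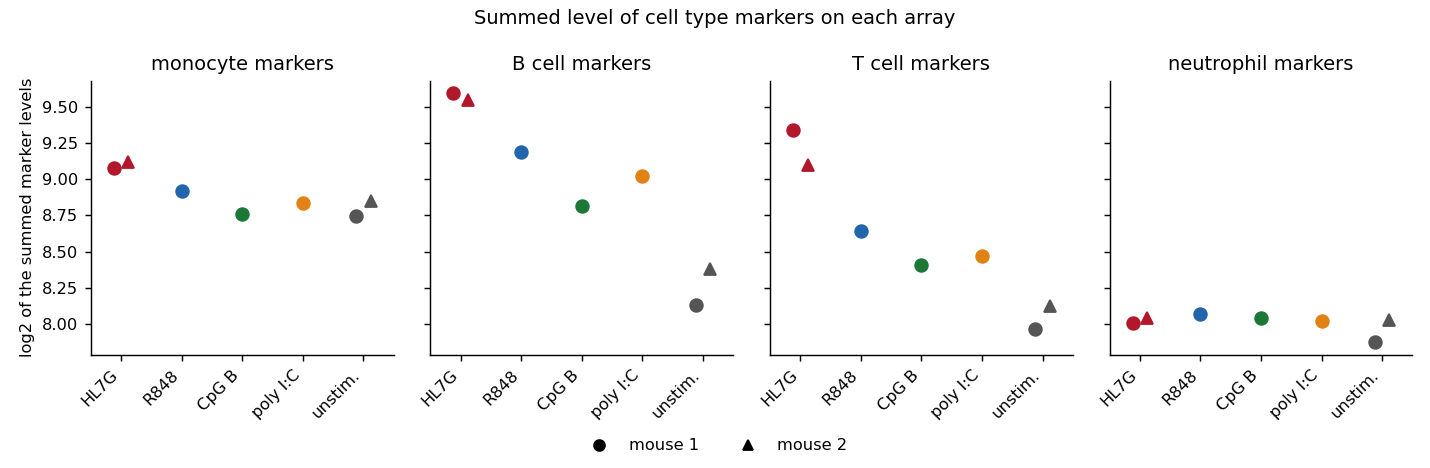
Log2 of the summed levels of monocyte, B cell, T cell and neutrophil markers (vertical axis, 1 panel a list) in each group (horizontal axis), with 1 point per array, marked by mouse. B cell markers lie at 9.54 to 9.59 in HL7G cells and 8.13 to 8.38 in unstimulated cells, while neutrophil markers stay between 7.88 and 8.07 on all arrays.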

How the data were processed

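The authors deposited log2 expression values per probe set, with 1 column per array. Per the submitters' processing notes, RMA, Affymetrix Expression Console and Transcriptome Analysis Console were used, with no versions given. TRIzol extraction and the WT PLUS kit were used, per the labels' protocols. No source used here names a build for the array design, and coordinates of probe sets are left out. The promoter coordinates are those of RefSeq, build GRCm38.p6.

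Probe sets were named through GEO's platform annotation, which gave a single symbol to 23521, several to 1814 and none to 16010 of 41345. For each gene the brightest probe set on average was used, and the 11119 genes that reached a log2 level of 5 on any array were tested. limma 3.58.1 in R 4.3.3 fitted all 7 arrays with 5 groups, 2 residual degrees of freedom and moderated variances; tests were 2-sided, and p-values were adjusted by Benjamini-Hochberg across the 11119 genes. Groups of 1 array were assumed to vary like the others. The script was tested on simulated data.

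The family genes, lists and tests were chosen with earlier results of these data known. All family genes are given; in each list, up to 4 called genes with the largest HL7G difference are named. Mouse numbers pair the samples, since each number is 1 animal per the labels; across 11119 genes the difference of mouse 2 from mouse 1 correlated between HL7G and unstimulated at r = -0.146. Tried as alternatives were the mouse as a block, leaving out each replicate, a variance trend, other filters, the mean of probe sets, median centring, loess and quantile normalization, and, chosen after seeing the data, leaving out both unstimulated arrays for HL7G against the agonists.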

Additional observations from a re-analysis of the deposited data

How the results depend on the processing

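Of 453 recomputed values of the 8 family genes over the 5 comparisons, 422 kept their direction and their side of the threshold, 2 lost a call, 11 gained one and 18 changed sign. Many directions could not change. A variance trend and other filters leave every difference as it was, and leaving out an HL7G array does so for each agonist against unstimulated. Only Mcl1 for HL7G had a call to lose, so the first count is no measure of stability. With the mouse as a block (replicate block), 1846 genes were called for HL7G against 2024 without it, 5 for R848 and 2 for poly I:C, and no call of a family gene changed. Leaving out 1 replicate at a time gave 2 to 3295 genes called for HL7G, 0 to 1541 for R848, 0 to 530 for CpG B and 0 to 198 for poly I:C. The lowest HL7G count came without the unstimulated array of mouse 1, and 862 genes were called without that of mouse 2 and 1348 without HL7G of mouse 1. Without either HL7G array only the unstimulated pair sets the residual spread, and without either unstimulated array only the HL7G pair does. The calls that Mcl1 gained for R848, and Mcl1, Bcl2 and Bcl2l1 for CpG B, without an HL7G array are therefore not read as results. A mean level of at least 6 left 457 genes called for HL7G, with 1337 tested. A variance trend called 95 genes for R848, 2 for CpG B and 2 for poly I:C. Loess called 51 genes for R848 and 2 for CpG B. Quantile normalization called 575 genes for R848, 120 for CpG B and 11 for poly I:C, and Mcl1 was then called for R848 (1.36, adjusted p = 0.0478). The median of all HL7G differences was 0.16 with median centring, -0.08 with loess and -0.12 with quantile normalization, against 0.06 as deposited. HL7G against the agonists had 0 genes called under every alternative run.

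The sign changes were of values with sizes up to 0.39, none called. With quantile normalization they were Bid for HL7G (-0.071) and CpG B (-0.044) and Bbc3 for R848 (-0.021), and with the replicate block Bbc3 for R848 (-0.049) and Bcl2l1 for HL7G against the agonists (0.19). With median centring they were Bak1 for poly I:C (0.0016) and Pmaip1 for HL7G against the agonists (0.0038). Leaving out 1 replicate at a time gave, for HL7G against unstimulated, -0.080 to 0.31 for Bbc3 and -0.22 to 0.40 for Bid. Bid ranged over -0.094 to 0.52 for R848 and -0.25 to 0.37 for CpG B, and Bak1 over -0.14 to 0.040 for poly I:C. For HL7G against the agonists, Bcl2 ranged over -0.73 to 0.29, Bcl2l1 over -0.61 to 0.39, Bbc3 over -0.088 to 0.31, Pmaip1 over -0.27 to 0.19 and Bid over -0.28 to 0.018. The cause of these changes was not tested. With 2 mice and 1 array per agonist, differences of the size seen for Bcl2 and Bcl2l1 were not told from the spread between arrays.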

Other observations

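Several apoptosis genes stayed under the level of 5 on all 7 arrays and were not tested. Of the BCL2 family these were Bmf and Hrk, which encode BH3-only proteins, with highest values of 4.91 and 4.12, and Bcl2l10, Bcl2l14 and Bcl2l15, with highest values of 4.28, 4.19 and 4.07. The death receptors and ligands of the list were dim as well: Fas did not pass 4.57, Fasl 4.54, Tnfsf10 4.47, Tnfrsf10b 4.42 and Tnfrsf1a 4.41. Birc5, a survival gene of dividing cells, did not pass 4.04.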
